A study of Mus musculus with 6 samples.

Results

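ATP-binding cassette (ABC) transporters and organic ion carriers were described in the livers of mice after hepatic ischemia and reperfusion (I/R), with and without ginsenoside Rk2, a saponin of ginseng. The members were all rows of the deposited count table whose gene names belong to the ABC subfamilies A to G or to the carrier families Slco, Slc22a, Slc47a and Slc17a, without the sterol and bile salt transporters Abca1, Abcg1, Abcg5, Abcg8 and Abcb11. This gave 75 of the 15454 rows in the table, with 39 ABC genes, 10 Slco, 16 Slc22a, 8 Slc17a and 2 Slc47a genes. Of these, 59 had enough counts to be tested among 12411 genes, and 16 did not. Members were set down by their textbook roles, or by family where the role is not settled, as for Slc22a18 among the uptake carriers. There were 26 uptake carriers (18 tested) and 14 efflux transporters of the plasma membrane (12 tested). The other 35 (29 tested) were neither, such as ABC proteins of mitochondria, peroxisomes and lysosomes, the ABCA lipid transporters and the SLC17 carriers.

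All mice were male, wild-type C57BL/6, aged 8 to 10 weeks, and all underwent warm I/R of 75% of the liver. The I/R group (n = 3 livers) received vehicle, and the I/R+Rk2 group (n = 3 livers) received Rk2 dissolved in that vehicle 2 days before surgery and again when reperfusion began. They are called untreated and treated livers where values are listed, always in the order of livers 1, 2 and 3. No liver without I/R was analysed, so each difference below is between treated and untreated injured livers. RNA from each whole liver sample was sequenced, and p-values measure the spread between these 6 livers only.

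Hepatocytes take up bile acids, hormones, bilirubin and drugs from the blood through basolateral carriers of the OATP (Slco) and SLC22 families. They pump conjugates into bile through canalicular ABC proteins and organic cations through the proton exchanger MATE, and return part of the load to the blood through basolateral ABCC proteins. Other ABC proteins carry fatty acids into peroxisomes or work in mitochondria, while the ABCE and ABCF proteins are ATPases of translation that cross no membrane.

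The libraries held 16809613 to 35618074 counts, and 3 counts, the limit that a count of 0 allows, corresponded to 0.0888 to 0.184 CPM (counts per 1000000 of the library size, scaled by the trimmed mean of M-values). Intervals of this kind cover counting error only. All 6 hepatocyte markers were detected in each liver, with a summed level of 56737 to 66398 CPM in untreated and 87781 to 108875 CPM in treated livers. Most of this sum was Alb (means of 49227 and 80119 CPM). Of the 6, 4 were called higher and none lower. Apoa1 (adjusted p = 0.0563) and Tat (log2 -0.23, adjusted p = 0.352) were not called. Markers of other cells moved as well. The summed level of 6 monocyte markers was 184 to 192 CPM in untreated and 6.42 to 12.4 CPM in treated livers, and that of 6 neutrophil markers was 408 to 525 CPM and 78.3 to 190.1 CPM. For 6 Kupffer cell markers it was 55.9 to 87.4 CPM and 43.4 to 54.8 CPM, for 6 endothelial markers 169 to 171 CPM and 129 to 165 CPM, for 6 stellate cell markers 141 to 181 CPM and 108 to 119 CPM, and for 6 cholangiocyte markers 166 to 231 CPM and 87.0 to 126 CPM. All 6 monocyte, 5 neutrophil, 2 stellate and 1 Kupffer cell markers were called lower and none higher. Of all genes tested, 20.3% were called higher and 23.7% lower, so the stellate and Kupffer cell counts lie near that share. The endothelial list was split, with 2 called higher (Clec4g and Kdr) and 3 lower, and so was the cholangiocyte list, with 1 higher (Cldn4) and 2 lower, where most of the sum was Spp1 (log2 -1.20). No marker was at 0 in any library. In whole liver, fewer cells of a type and less RNA per cell cannot be told apart, and the part of these shifts in the transporter results was not tested.

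Of the 59 tested members, 25 rose and 10 fell with Rk2 at an adjusted p below 0.05 (edgeR quasi-likelihood test, Benjamini-Hochberg adjustment over all 12411 genes), and 24 were not called. The called share was 59.3% against 43.9% of all genes tested, with 42.4% higher against 20.3% and 16.9% lower against 23.7%. With library size as the only scaling, which moved the median of all genes to -0.17, the split was 14 higher and 11 lower of 59. That scaling called 1320 of all 12411 genes higher and 3481 lower, against 2516 and 2938 in the main fit. The rises were mostly modest and the falls were larger in the median (log2 0.65 and -1.45). The same held for all genes that rose or fell (0.61 and -0.97). At a fold change above 2, 5 members rose (8.47% against 3.17% of all genes) and 7 fell (11.9% against 11.4%), 20.3% in all against 14.6%. In 41 of the 59 members the livers of the groups did not overlap (69.5% against 57.4% of all genes), 30 with I/R+Rk2 above and 11 below. The median log2 fold change was 0.34 over the members and -0.01 over all genes tested.

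The uptake and the efflux side each held members that rose and members that fell. Among the 18 tested uptake carriers 6 rose, 3 fell and 9 were not called, with a median log2 fold change of 0.33 (33.3% higher and 16.7% lower, against 20.3% and 23.7% of all genes tested), and with library size alone 3 rose and 3 fell. Among the 12 tested efflux transporters 4 rose, 4 fell and 4 were not called, with a median of -0.01 (33.3% in each direction), and with library size alone 2 rose and 5 fell. Without I/R liver 1, I/R liver 3, I/R+Rk2 liver 2 or I/R+Rk2 liver 3 the efflux counts were 2 higher and 4 lower. Over all genes these fits called 1640 to 2099 higher and 2213 to 2514 lower, against 2516 and 2938 with all livers. The 7 members that fell more than 2-fold were 3 of the 18 uptake carriers (16.7%) and 4 of the 12 efflux transporters (33.3%), against 11.4% of all genes. Of these 3 uptake carriers, Slc22a21 lost its call when most single livers were left out, as given below. The 5 that rose more than 2-fold were in neither class (17.2% of 29, against 3.17% of all genes). Among the 29 tested members in neither class, some of which also act at the plasma membrane, 15 rose and 3 fell (51.7% and 10.3%), with library size alone 9 and 3, and 9 and 2 without I/R liver 3. For the counts of smaller classes below, the shares of all genes tested remain 20.3% higher and 23.7% lower.

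**Figure D1:**
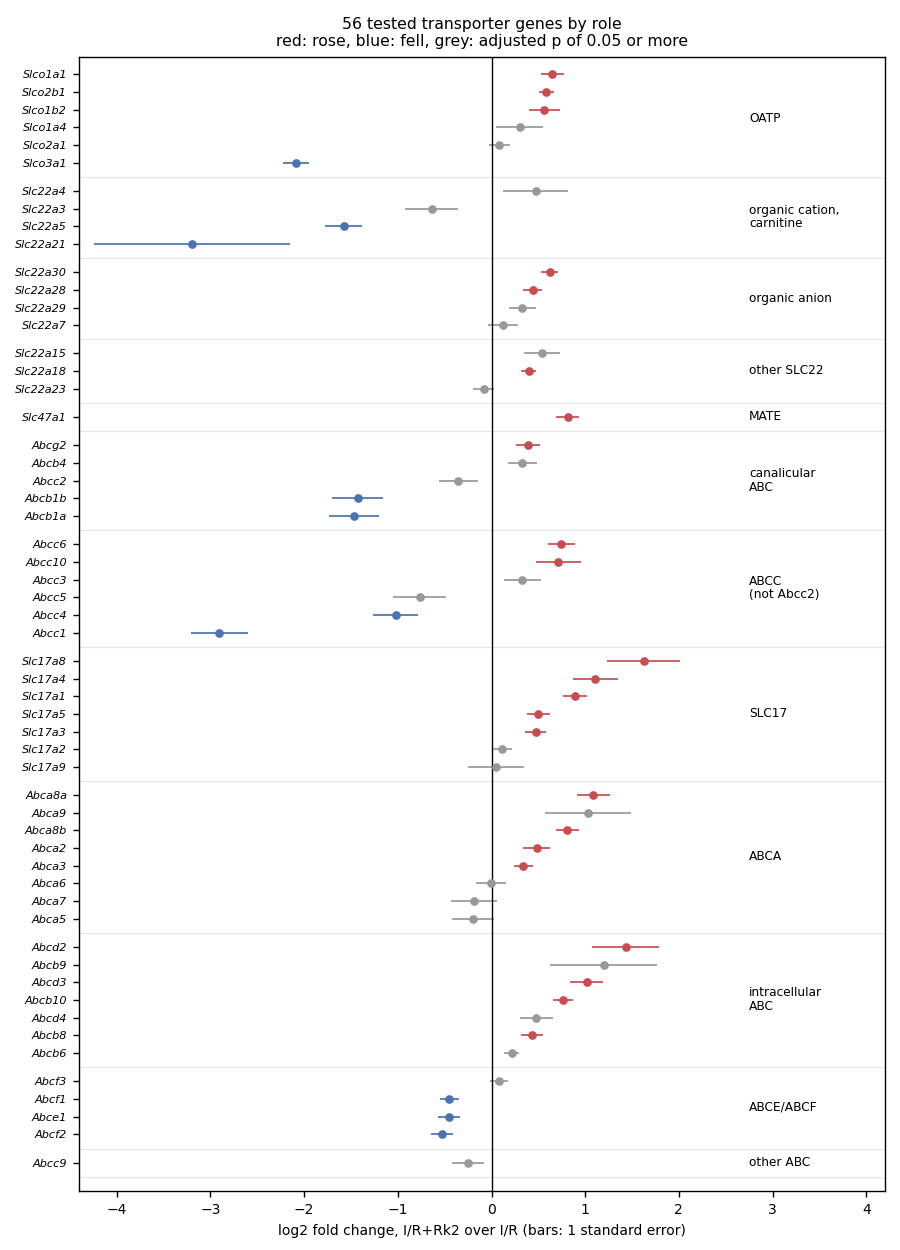
The log2 fold change of I/R+Rk2 over I/R for 56 of the 59 tested members, grouped by role, with bars of 1 standard error. Red points (23) rose, blue points (10) fell and grey points (23) had an adjusted p of 0.05 or more. The blue points reach to -3.20 and the red points to 1.62.

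The OATP carriers that dominate in hepatocytes rose, while a widely expressed member of the family fell. Of 6 tested Slco genes 3 rose and 1 fell, with library size alone 2 and 1. Slco1b2, the hepatic OATP for bilirubin, bile acids and many drugs, was the OATP with the highest level per length (72.5 ± 13.9 FPKM in untreated livers, where FPKM are fragments per kilobase of transcript scaled to the mapped reads). It had 216, 204 and 301 CPM in untreated livers and 315, 390.4 and 359.9 CPM in treated livers. The treated livers were all above the untreated ones, but I/R liver 3 came close to the lowest treated liver. Its log2 fold change was 0.56 ± 0.166 (SE, adjusted p = 0.0295). This call rested on single livers, since the adjusted p was 0.0913 without I/R liver 1, 0.0844 without I/R liver 2, 0.0922 without I/R+Rk2 liver 2, 0.0691 without I/R+Rk2 liver 3 and 0.0646 with library size alone. In the 3 limma fits on FPKM the adjusted p was 0.054, 0.0566 and 0.0884.

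Slco1a1, an OATP of sulfated steroids and bile acids, had 163, 183 and 207 CPM in untreated livers and 257, 321 and 289 CPM in treated livers. The groups did not overlap, and the level was 1.57-fold higher with Rk2 (log2 0.65 ± 0.125, adjusted p = 0.00614). Slco2b1, which carries steroid sulfates and several drugs, was tighter still, at 92.0, 95.1 and 87.8 CPM and 131, 143 and 138 CPM. Here the gap between the groups was several times the spread within them, for a log2 fold change of 0.58 ± 0.0783 (adjusted p = 0.00168), although the adjusted p was 0.0511 and 0.064 in 2 of the 3 fits on FPKM.

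Slco3a1, a carrier of prostaglandins and thyroxine found in many tissues, moved the other way. It fell from 13.03 ± 1.17 CPM (SD, n = 3) to 3.08 ± 0.203 CPM. Its counts were 224, 352 and 343 in untreated livers against 76, 96 and 52 in treated ones. All treated libraries lay far below all untreated ones, including the treated library with the most counts. The level was 4.25-fold lower (log2 -2.09 ± 0.135, adjusted p = 0.00024), the smallest adjusted p of any member. The monocyte and neutrophil markers given above were lower in the same livers, and their part in this fall was not tested. The remaining Slco genes were not called. Slco1a4, a close relative of Slco1a1, had 16.3, 19.9 and 16.7 CPM and 15.2, 30.6 and 19.2 CPM, with I/R+Rk2 liver 2 standing apart (adjusted p = 0.358). The prostaglandin carrier Slco2a1 had 94.4, 94.8 and 91.3 CPM and 116, 91.7 and 89.8 CPM (adjusted p = 0.573), and was called higher, with a log2 value of 0.42, only where the trend with transcript length was removed (adjusted p = 0.036).

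Slco1b2 and Slco1a1 rose and lie in the same gene cluster on chromosome 6, so the sequences upstream of their starts are shown here. They come from RefSeq (GRCm38.p6), cover the 250 bases before the start and are written 5′ to 3′ on the strand of the gene, at chr6:141629268-141629517 (plus strand) for Slco1b2 and chr6:141946963-141947212 (minus strand) for Slco1a1. Capitals mark matches, on either strand, to the TATA box TATAAA, the nuclear receptor half-site AGGTCA and the HNF1 half-site GTTAAT.
Slco1b2: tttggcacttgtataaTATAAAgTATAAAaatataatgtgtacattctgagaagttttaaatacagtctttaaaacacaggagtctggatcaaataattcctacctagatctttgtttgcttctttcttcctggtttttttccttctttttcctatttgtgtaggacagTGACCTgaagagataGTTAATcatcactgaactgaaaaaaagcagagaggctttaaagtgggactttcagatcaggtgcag
Slco1a1: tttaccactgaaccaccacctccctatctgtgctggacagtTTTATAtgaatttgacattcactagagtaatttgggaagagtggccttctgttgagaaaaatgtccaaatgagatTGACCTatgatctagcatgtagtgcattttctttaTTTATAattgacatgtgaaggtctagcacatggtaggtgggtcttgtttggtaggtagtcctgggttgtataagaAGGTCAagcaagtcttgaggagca
Slco1b2 held TATAAA matches at positions -234 and -227, AGGTCA at -81 and GTTAAT at -66 from the start, and Slco1a1 held TATAAA at -209 and -99 and AGGTCA at -134 and -24. Among the 32851 mouse promoters of this length that were counted, 12.4% held TATAAA, 14% held AGGTCA and 6.43% held GTTAAT. They are called all promoters below, and leave out a chromosome that holds no member. A promoter entry close to the annotated gene start was matched for 53 of the 75 members, 17 of which rose and 6 of which fell. AGGTCA was present in 4 of those 17 (Slco1b2, Slco1a1, Abcg2 and Abcc10) and in none of the 6. It was also present in 2 of the 17 tested members with a matched promoter that were not called. Of the 4 risers, only Slco1a1 kept its call in every alternative. A match describes letters in this window and not a bound site.

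Among the organic cation and carnitine carriers none of 5 rose and 2 fell, both of them carnitine carriers. Slc22a5 (OCTN2), the high-affinity carnitine carrier of the plasma membrane, had 52.3, 47.4 and 33.8 CPM in untreated livers and 11.9, 16.3 and 16.5 CPM in treated livers. Every treated liver held well under the lowest untreated liver, and the gene was 2.99-fold lower (log2 -1.58 ± 0.198, adjusted p = 0.00134). In FPKM, which allows comparison between genes, it went from 16.4 ± 3.05 to 4.75 ± 1.17 (SD, n = 3), from rank 20 to rank 38 of the 59 members.

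The sequence upstream of Slc22a5 is shown because this carnitine carrier kept its fall in every alternative. The 250 bases from RefSeq (GRCm38.p6) lie at chr11:53891704-53891953 (minus strand), and capitals mark the GC box GGGCGG on either strand.
Slc22a5: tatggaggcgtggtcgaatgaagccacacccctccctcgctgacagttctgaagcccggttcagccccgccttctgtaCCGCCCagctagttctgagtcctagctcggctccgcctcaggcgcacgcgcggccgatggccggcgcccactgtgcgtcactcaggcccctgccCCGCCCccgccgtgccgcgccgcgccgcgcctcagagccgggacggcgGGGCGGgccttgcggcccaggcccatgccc
GC box matches began at -172, -78 and -30. The GC box was present in 5 of the 6 members that fell and had a matched promoter, and in 4 of the 17 that rose. It was also present in 10 of the 17 tested members with a matched promoter that were not called, and in 32.7% of all promoters.

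Slc22a21 (Octn3), another carnitine carrier of rodents that lies next to Slc22a5, had 202, 219 and 129 counts in untreated livers and 0, 7 and 47 counts in treated livers. A count of 0 in I/R+Rk2 liver 1 allows up to 0.126 CPM. The groups did not overlap, but the 3 treated livers were spread widely (log2 -3.20 ± 1.05, adjusted p = 0.0426). The call was lost without I/R liver 1 (adjusted p = 0.121), I/R liver 2 (0.0923), I/R liver 3 (0.0686), I/R+Rk2 liver 1 (0.0555) or I/R+Rk2 liver 2 (0.112), and without I/R+Rk2 liver 3 the log2 fold change was -6.02 (adjusted p = 0.00324). DESeq2 gave an adjusted p of 0.168, and removal of the length trend 0.0554.

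The organic anion carriers of SLC22 were higher or not called. Of 4 tested genes 2 rose (with library size alone 1). Slc22a30, a rodent anion carrier, had 89.1, 106 and 93.0 CPM in untreated livers and 148, 144 and 151 CPM in treated livers. The treated livers were nearly equal and all above the untreated ones (log2 0.62 ± 0.0908, adjusted p = 0.00228). Its neighbour Slc22a28 had 33.8, 41.7 and 35.5 CPM and 50.2, 49.9 and 50.5 CPM and also rose, by less (log2 0.44 ± 0.0995, adjusted p = 0.0113), and lost its call without I/R liver 3 (adjusted p = 0.0513) and with library size alone (0.069). Slc22a28 was also not called in the 3 limma fits on FPKM (adjusted p = 0.0718, 0.0719 and 0.0605). Slc22a29, the member between them, had 5.82 ± 0.83 CPM and 7.30 ± 0.2 CPM and was not called (adjusted p = 0.105). The genes of this rodent cluster are closely related copies that may share reads, which was not measured, so the split between them is uncertain. Slc22a7 (OAT2), a carrier of glutamate, cyclic GMP and urate, had 38.8, 44.6 and 46.0 CPM and 56.6, 37.0 and 48.0 CPM with overlapping livers (adjusted p = 0.549).

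Of the other SLC22 genes, Slc22a18, an imprinted gene whose substrate is not settled, had 44.3, 46.7 and 50.7 CPM without Rk2 and 61.2, 62.6 and 62.7 CPM with it. All treated livers were above all untreated ones (log2 0.40 ± 0.0832, adjusted p = 0.00862), a call lost with library size alone (0.0809). The limma fits on FPKM for genes of mean FPKM 1 or more also lost this call (adjusted p = 0.0592 and 0.0594). Slc22a15 was not called at 9.62 ± 1.02 CPM and 13.9 ± 3.55 CPM (adjusted p = 0.0604), but was called higher with upper-quartile scaling (0.0424), with DESeq2 (0.0463) and without I/R+Rk2 liver 1 (0.0222). Slc22a23 had a log2 fold change of -0.09 ± 0.112 (adjusted p = 0.565).

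**Figure D2:**
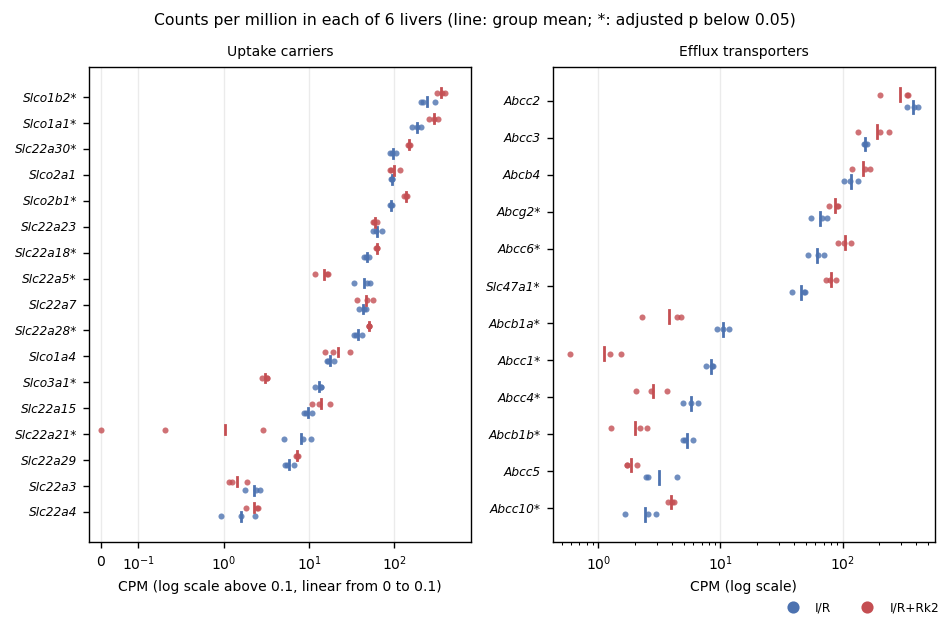
CPM of 17 of the 18 tested uptake carriers (left) and the 12 tested efflux transporters (right) in each of the 6 livers on a log axis, linear between 0 and 0.1 on the left. Points are livers, vertical lines are group means (n = 3), and an asterisk marks an adjusted p below 0.05. Slco3a1, Slc22a5, Abcb1a, Abcb1b, Abcc1 and Abcc4 show red points clearly to the left of the blue ones.

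On the canalicular side, both genes of the multidrug P-glycoprotein fell while the main conjugate and phospholipid pumps were not called. Abcb1a, which exports lipophilic drugs, had 9.38, 10.5 and 11.7 CPM in untreated livers and 2.27, 4.41 and 4.79 CPM in treated livers. All treated livers were below all untreated ones, with I/R+Rk2 liver 1 the lowest (2.77-fold lower, log2 -1.47 ± 0.268, adjusted p = 0.00508). Abcb1b, the form induced in stressed and regenerating rodent liver, had 94, 131 and 150 counts and 30, 74 and 41 counts, or 4.90, 5.11 and 5.98 CPM and 1.26, 2.19 and 2.52 CPM. The order of the treated livers was the same as for Abcb1a, and the fall was of like size (log2 -1.43 ± 0.268, adjusted p = 0.00556). These neighbours are closely related copies that may share reads, which was not measured, so they may not be independent measurements. Each also overlaps exons of a predicted gene on the opposite strand, and the strand setting of the counting is not given in the sources used here.

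The 250 bases upstream of Abcb1b (RefSeq, GRCm38.p6, chr5:8797897-8798146, plus strand) are shown because the gene is the stress-inducible form. Capitals mark the CCAAT box CCAAT and the GC box GGGCGG on either strand.
Abcb1b: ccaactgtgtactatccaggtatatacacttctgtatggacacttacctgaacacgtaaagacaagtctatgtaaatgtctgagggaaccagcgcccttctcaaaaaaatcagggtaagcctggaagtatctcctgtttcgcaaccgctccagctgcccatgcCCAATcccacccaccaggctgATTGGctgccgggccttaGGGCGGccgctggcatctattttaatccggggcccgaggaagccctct
CCAAT matches began at -87 and -66 and the GC box at -48. CCAAT was present in 33.8% of all promoters, in 2 of the 6 fallers and in 1 of the 17 risers with a matched promoter. It was also present in 6 of the 17 tested members with a matched promoter that were not called. Also searched on both strands were the E-box CACGTG (6.02% of all promoters, 1 riser and 2 fallers), the AP-1 site TGANTCA (6.75%, no riser and no faller), the antioxidant response element core TGACNNNGC (10.2%, 2 risers and 1 faller), the cyclic AMP element TGACGTCA (1.55%, no riser and 1 faller) and the NF-kB consensus (7.25%, no riser and 1 faller). Among the 17 members not called, these motifs were present in 1, 0, 1, 0 and 1, in that order. Matches of different motifs may overlap.

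Abcg2 (BCRP), which exports sulfated conjugates and urate, was called higher in counts, with 55.0, 74.0 and 67.8 CPM in untreated livers and 76.7, 91.4 and 90.1 CPM in treated livers (log2 0.39 ± 0.131, adjusted p = 0.0458), but its direction turned in FPKM, where it went from 33.2 ± 3.35 to 28.9 ± 2.97 (SD, n = 3, log2 -0.19, limma adjusted p = 0.242). The call was also lost without I/R liver 1 (adjusted p = 0.107), I/R liver 3 (0.0981), I/R+Rk2 liver 2 (0.133) or I/R+Rk2 liver 3 (0.109), and with library size alone (0.133). Counts and FPKM thus gave opposite signs for this gene.

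Abcc2 (MRP2), the pump of bilirubin glucuronides and glutathione conjugates, had 334, 412 and 383 CPM without Rk2 and 201, 342 and 339 CPM with it. I/R+Rk2 liver 1 was far below the rest, and the other treated livers lay within the untreated range (log2 -0.36 ± 0.207, adjusted p = 0.201). Abcb4 (MDR2), the phosphatidylcholine floppase of bile, had 103, 134 and 114 CPM and 119.9, 152 and 169 CPM (log2 0.33 ± 0.153, adjusted p = 0.12), and was called higher without I/R+Rk2 liver 1 (log2 0.45, adjusted p = 0.037). Slc47a1 (MATE1), which exchanges organic cations for protons at the canaliculus, rose clearly. Its CPM were 38.8, 48.8 and 48.6 in untreated livers and 72.6, 87.9 and 79.0 in treated livers, a wide gap without overlap (1.76-fold higher, log2 0.81 ± 0.123, adjusted p = 0.00261).

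Among the 6 other ABCC transporters 2 fell and 2 rose (with library size alone 3 and 1). Abcc1 (MRP1), the exporter of leukotriene C4 and glutathione conjugates that is low in resting hepatocytes, had 168, 195 and 215 counts in untreated livers and 14, 42 and 25 counts in treated livers, or 8.31 ± 0.616 CPM and 1.12 ± 0.485 CPM (SD, n = 3). Every untreated liver was several times above every treated liver. At 7.49-fold lower (log2 -2.90 ± 0.305, adjusted p = 0.000753) it had the largest fall among the members called in every alternative that gave a value. The monocyte and neutrophil marker sums, given above, were lower in the same livers, and their part was not tested.

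Abcc4 (MRP4), a basolateral pump of bile acids and cyclic nucleotides that is known to be induced in cholestasis, had 4.95, 6.56 and 5.70 CPM and 3.66, 2.72 and 2.03 CPM. The groups did not overlap (log2 -1.02 ± 0.24, adjusted p = 0.013), although the fit without the length trend gave an adjusted p of 0.0533. Abcc6, a hepatocyte protein of the basolateral membrane that lets ATP out and whose loss causes ectopic mineralisation, moved upward, with 52.0, 70.5 and 63.0 CPM without Rk2 and 90.9, 118 and 102 CPM with it. All treated livers were above all untreated ones (log2 0.75 ± 0.144, adjusted p = 0.00618). Abcc3 (MRP3), the basolateral pump of glucuronides, had 151, 158 and 151 CPM and 135, 240.2 and 203 CPM, where I/R+Rk2 liver 1 was below all untreated livers and the other two were above them (adjusted p = 0.206). Without I/R+Rk2 liver 1 it was called higher (log2 0.52, adjusted p = 0.00834). Of the members outside the rule for named genes, Abcc10, named after its values were seen, was called at the margin (log2 0.71 ± 0.24, adjusted p = 0.0469) and lost the call without any of I/R liver 1 (0.0883), I/R liver 3 (0.0987) or I/R+Rk2 livers 1 (0.0702), 2 (0.124) and 3 (0.0898). It was also not called with library size alone (0.0896), with DESeq2 (0.0546) or in the limma fit on FPKM without a filter (0.0701).

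Summed over their members, the uptake carriers came to 1149, 1262 and 1327 CPM in untreated livers and 1568, 1701 and 1587 CPM in treated livers, a ratio of 1.299 without overlap. The exact two-sided permutation test gave p = 0.1, the smallest that 3 against 3 livers allow. The efflux transporters came to 766, 934 and 865 CPM and to 709, 1049 and 999 CPM, a ratio of 1.07 with overlapping livers (exact permutation p = 0.6). In FPKM, which are scaled for transcript length but not by the trimmed mean of M-values, these ratios were 1.17 and 0.99. The factors of that scaling were 1.14, 1.02 and 1.01 in untreated livers and 0.975, 0.949 and 0.914 in treated livers. The parts of length and of this scaling in the difference were not tested. Abcc2 alone held 44.0% of the efflux sum in I/R and 32.0% in I/R+Rk2.

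**Figure D3:**
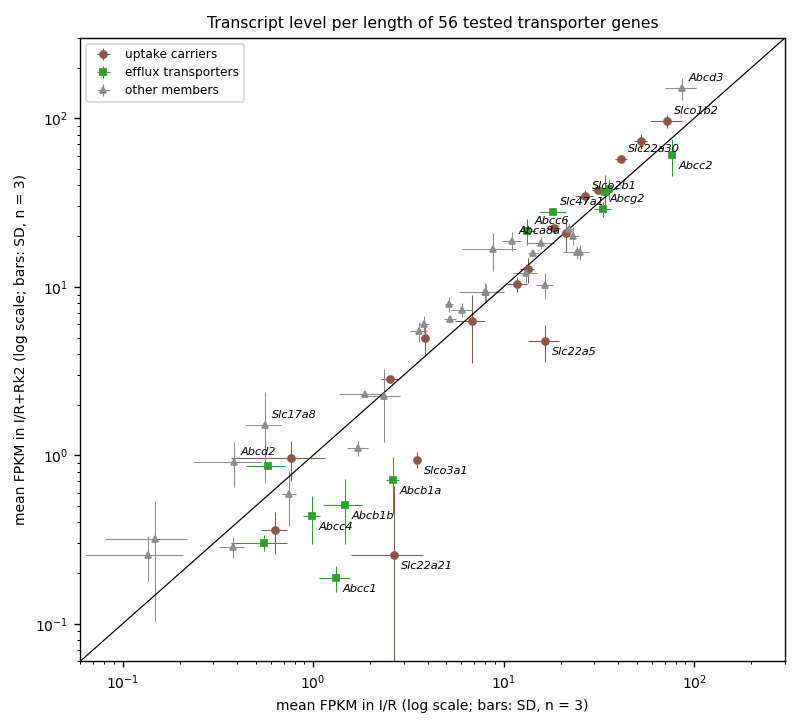
Mean FPKM in I/R+Rk2 against mean FPKM in I/R for 56 of the 59 tested members on log axes, with bars of 1 SD (n = 3), some of which run off the lower edge. The black line marks equal levels. Abcd3 lies above the line at 86.4 and 151 FPKM, while Slc22a5, Slco3a1, Abcb1a and Abcc1 lie well below it.

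The ABC transporters of mitochondria, peroxisomes and lysosomes rose or were not called. All 9 intracellular ABC genes had a log2 fold change above 0, also with library size alone, and 6 of them rose (4 with library size alone, 8 with RLE or upper-quartile scaling). Abcd3 (PMP70), which carries branched-chain acyl-CoA and bile acid intermediates into peroxisomes, had 242, 348 and 260.4 CPM in untreated livers and 495, 687 and 536 CPM in treated livers. The lowest treated liver was well above the highest untreated one (2.02-fold higher, log2 1.01 ± 0.179, adjusted p = 0.00443). It had the highest FPKM of the tested members in treated livers, at 86.4 ± 15.9 in I/R and 151 ± 23.2 in I/R+Rk2. Its peroxisomal relative Abcd2, for very long-chain fatty acids, rose too. It was low, at 45, 32 and 71 counts and 90, 245 and 102 counts (log2 1.43 ± 0.36, adjusted p = 0.0167), and was not called without I/R+Rk2 liver 2 (log2 1.22, adjusted p = 0.059).

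Among the mitochondrial members, Abcb10, which acts in heme synthesis, had 20.2, 22.6 and 24.8 CPM without Rk2 and 41.2, 37.5 and 36.2 CPM with it. The groups were far apart relative to their spread (log2 0.76 ± 0.107, adjusted p = 0.00191). Abcb8, Abcd4, Abcb6 and Abcb9 were named after their values were seen. Abcb8 rose by a log2 value of 0.43 ± 0.118 (adjusted p = 0.0233) but not without I/R liver 1 (0.0663), I/R liver 3 (0.0902), I/R+Rk2 liver 1 (0.0535) or I/R+Rk2 liver 2 (0.0769). Nor was Abcb8 called with library size alone (0.156) or in the 3 limma fits on FPKM (0.343 to 0.42). The adjusted p was 0.0584 for Abcd4, a lysosomal cobalamin transporter, 0.0617 for Abcb6 and 0.128 for Abcb9. Of these, Abcd4 was called higher with RLE (DESeq2's size factors, 0.0462) and upper-quartile scaling (0.039) and without I/R liver 1 (0.0251), Abcb6 with RLE (0.0486) and upper-quartile scaling (0.0283) and with the length trend removed (0.0302), and Abcb9 without I/R+Rk2 liver 3 (0.0416). The class summed to 398 ± 56.3 CPM in untreated and 737 ± 107 CPM in treated livers (SD, n = 3), 77.7% of it Abcd3 in the treated livers.

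The SLC17 carriers, which move urate, phosphate and organic anions at the plasma membrane or load vesicles and lysosomes, were also higher where called, 5 of 7 (3 with library size alone). Slc17a1 (NPT1), a urate carrier, had 107, 133 and 129 counts in untreated livers and 256, 307 and 158 counts in treated livers, or 5.30 ± 0.239 CPM and 9.85 ± 0.845 CPM. The treated livers were all above the untreated ones (log2 0.89 ± 0.126, adjusted p = 0.00199). Slc17a4, another urate and organic anion carrier, had 27.4, 21.9 and 16.3 CPM and 36.3, 60.4 and 44.2 CPM and was 2.15-fold higher (log2 1.11 ± 0.24, adjusted p = 0.00974).

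Slc17a3 (NPT4) rose by a log2 value of 0.47 ± 0.114 (adjusted p = 0.0142), not called with library size alone (0.109) or without I/R liver 3 (0.0556). The 3 limma fits on FPKM did not call it either (adjusted p = 0.254, 0.255 and 0.287). Slc17a8, a vesicular glutamate transporter that is scarce in liver, had 52, 73 and 50 counts and 111, 423 and 95 counts. I/R+Rk2 liver 2 was well above the other treated livers (log2 1.62 ± 0.392, adjusted p = 0.0144). Its log2 fold change was 1.06 without I/R+Rk2 liver 2, and its adjusted p was 0.0529 without I/R liver 3. Slc17a5 (sialin), which exports sialic acid from lysosomes and was named after its values were seen, rose by a log2 value of 0.50 ± 0.121 (adjusted p = 0.0143) but was not called without I/R liver 3 (0.0538) or with library size alone (0.0542). The 3 limma fits on FPKM did not call Slc17a5 either (adjusted p = 0.103 to 0.11).

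Among 8 tested ABCA genes, which handle lipids, 4 rose and none fell (2 with library size alone). Abca8a had 39.7, 56.0 and 49.3 CPM without Rk2 and 81.2, 117 and 109 CPM with it, and its neighbour Abca8b had 27.9, 30.2 and 27.9 CPM and 42.1, 54.1 and 54.7 CPM. Both were apart between the groups, at a log2 fold change of 1.08 ± 0.175 (adjusted p = 0.00326) and 0.81 ± 0.121 (adjusted p = 0.00246). They are closely related copies, so reads may be split between them. Abca2, of lysosomes, rose by a log2 value of 0.48 ± 0.142 (adjusted p = 0.0296) and Abca3, the phospholipid transporter of lung lamellar bodies, by 0.34 ± 0.103 (adjusted p = 0.0331). Neither call held without I/R liver 1 (adjusted p = 0.0649 and 0.0883), I/R liver 3 (0.0897 and 0.113), I/R+Rk2 liver 1 (0.0792 and 0.0839) or I/R+Rk2 liver 2 (0.0699 and 0.0833), or with library size alone (0.089 and 0.259). In the 3 limma fits on FPKM the adjusted p was 0.184 to 0.215 for Abca2 and 0.314 to 0.322 for Abca3.

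The ABCE and ABCF genes, which act on ribosomes, fell in 3 of 4 cases under all scalings. Abcf1, a factor of translation initiation, had 70.1, 70.4 and 67.3 CPM without Rk2 and 55.9, 51.3 and 44.6 CPM with it (log2 -0.45 ± 0.101, adjusted p = 0.0107). Its treated livers were all below the untreated ones. Abcf2 fell by 0.53 on the log2 scale (SE 0.119, adjusted p = 0.011). Abce1, which splits ribosomes after termination, had 97.8, 78.8 and 97.1 CPM and 71.4, 60.1 and 68.1 CPM (log2 -0.46 ± 0.117, adjusted p = 0.018), and the adjusted p was 0.0696 without I/R liver 1, 0.0654 without I/R liver 3 and 0.0622 without I/R+Rk2 liver 2. Abcc9, a potassium channel subunit set apart from these classes, was not called (log2 -0.25 ± 0.171, adjusted p = 0.263).

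**Figure D4:**
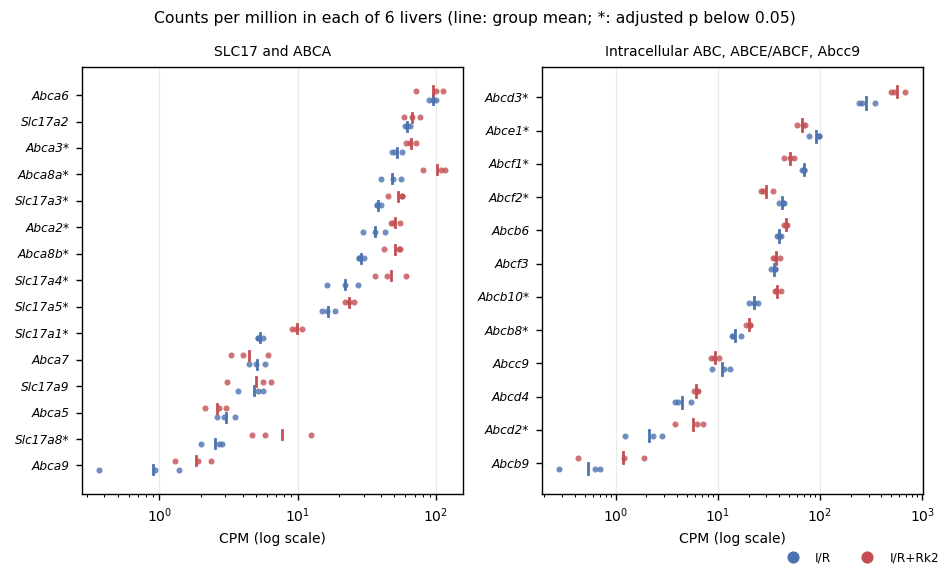
CPM of 27 of the 29 tested members that are neither uptake nor efflux transporters in each of the 6 livers, on log axes. Points are livers, vertical lines are group means (n = 3), and an asterisk marks an adjusted p below 0.05. Abcd3 has the highest CPM, and Abcf1, Abcf2 and Abce1 are the starred genes with red to the left of blue.

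Within gene clusters some neighbours were called and others were not. On chromosome 5 (mm10, GENCODE M21, chr5:8660077-8959231) Abcb1a and Abcb1b fell whereas Abcb4, which follows them on the same strand, did not pass the test at 0.33. On chromosome 11 (chr11:53864542-54028090) Slc22a5 and Slc22a21 fell whereas Slc22a4, the ergothioneine carrier at the other end, had a log2 value of 0.47 ± 0.344 (adjusted p = 0.3). In the chromosome 11 cluster of ABCA genes (chr11:109932190-110337716) Abca8b and Abca8a rose, and Abca9, Abca6 and Abca5 had log2 values of 1.03, -0.01 and -0.20 without a call.

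On chromosome 13 (chr13:23806993-23915009) Slc17a3, Slc17a1 and Slc17a4 rose and Slc17a2 did not pass (0.11, adjusted p = 0.427). On chromosome 6 (chr6:141524368-141946962) Slco1b2 and Slco1a1 rose with Slco1a4 between them not called. The differences between neighbours were not tested, and Slc22a4, Abca9, Abca6, Abca5 and Slc17a2 were named for their position after their values were seen.

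**Figure D5:**
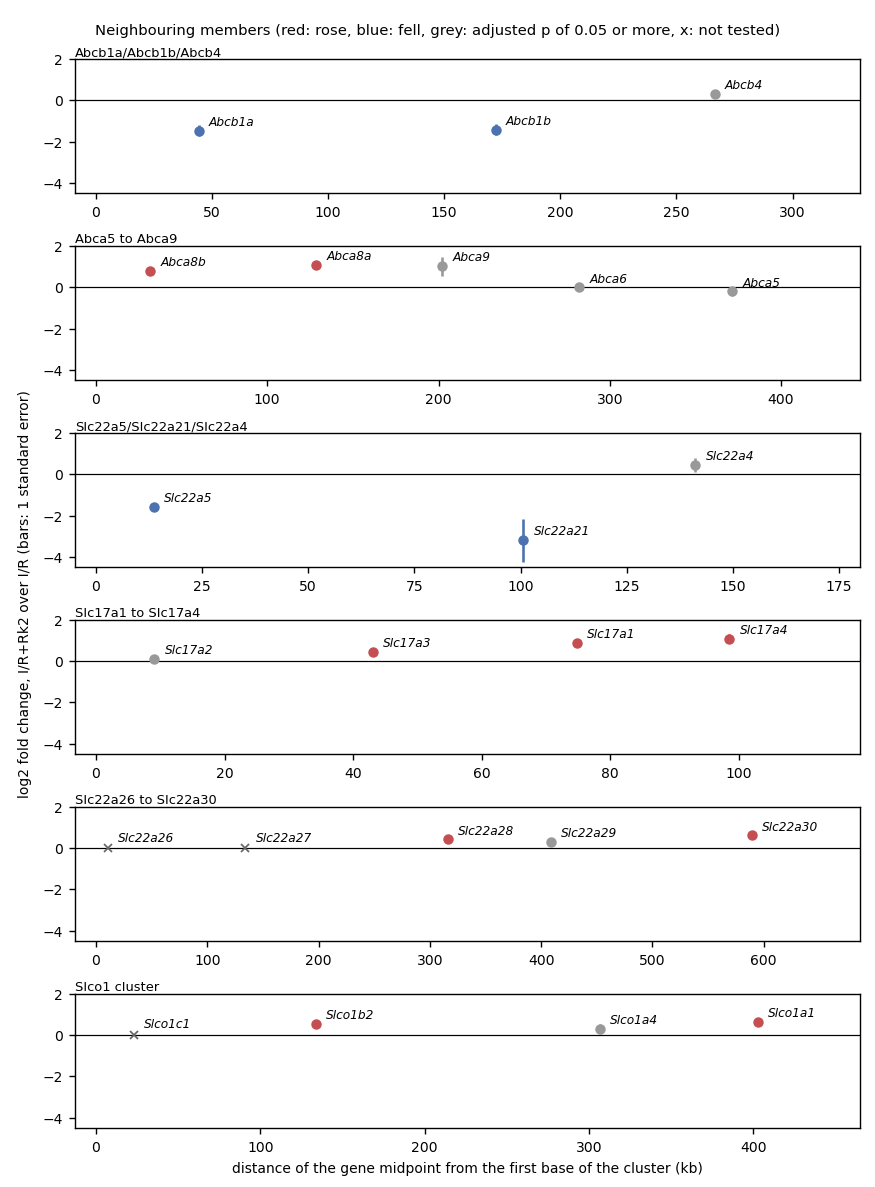
Log2 fold change (bars of 1 standard error) against distance along each of 6 gene clusters in kb from the first base of the cluster. Red points rose, blue points fell, grey points had an adjusted p of 0.05 or more, and crosses at 0 were not tested. Abcb4 and Slc22a4 sit above neighbours that fell.

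Nuclear receptors and other factors that are known to regulate transporter genes were counted in the same test. Of 14, 4 rose, 3 fell and 7 were not called, where 20.3% of all genes tested rose and 23.7% fell. The median log2 fold change was 0.04 against -0.01 over all genes. The bile acid receptor Nr1h4 (FXR) rose from 42.0 ± 3.01 CPM to 80.3 ± 1.55 CPM (log2 0.94, adjusted p = 0.000501), and its target Nr0b2 (SHP) from 15.7 ± 5.77 to 58.9 ± 29.1 CPM (log2 1.91, adjusted p = 0.00892). The drug sensor Nr1i3 (CAR) rose by a log2 value of 1.02 (adjusted p = 0.00505) and Nr1h3 (LXR alpha) by 0.84 (adjusted p = 0.00377). The aryl hydrocarbon receptor Ahr fell by 0.94 on the log2 scale (adjusted p = 0.00215), the antioxidant factor Nfe2l2 by 0.74 (adjusted p = 0.00471) and Hnf4a by 0.52 (adjusted p = 0.00583). The pregnane receptor Nr1i2 (log2 0.18, adjusted p = 0.522) and Ppara (log2 0.06, adjusted p = 0.869) were not called.

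Proteins that anchor transporters at the membrane were also mixed. Of 7 scaffold genes 6 were tested, of which 2 rose and 2 fell (20.3% and 23.7% of all genes tested), with a median log2 fold change of 0.07. Moesin (Msn), abundant in leukocytes and endothelium, fell from 89.8 ± 10.0 to 21.0 ± 3.76 CPM (log2 -2.10, adjusted p = 0.000265), and ezrin (Ezr) had a log2 value of -1.18 (adjusted p = 0.00333). Radixin (Rdx), the form that links canalicular Abcc2 to actin, had a log2 value of 0.48 (adjusted p = 0.0428). Pdzk1, which binds OATP tails, had 0.56 (adjusted p = 0.049). Both calls were near the threshold. In FPKM, Rdx had 24.7 ± 4.81 in untreated and 27.3 ± 4.97 in treated livers, and Pdzk1 13.5 ± 4.13 and 16.8 ± 1.49 (SD). Of the 5 transporters left out of the member list, Abca1 and Abcg1 were called lower (log2 -1.50 and -2.05), and Abcg5, Abcg8 and Abcb11 were not called (adjusted p = 0.166, 0.166 and 0.226). Slc10a1 (NTCP), the sodium-dependent bile acid carrier, was called higher (log2 1.06, adjusted p = 0.00249).

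The 16 members without a test were Abca12, Abca17, Abca4, Abcc12, Abcg3, Abcg4, Slc17a7, Slc22a17, Slc22a2, Slc22a26, Slc22a27, Slc47a2, Slco1c1, Slco4a1, Slco4c1 and Slco5a1. None exceeded 174 counts in any liver, a value reached by the kidney cation carrier Slc22a2 in I/R liver 2. The other livers had 0 counts of it. These genes did not pass the count filter and have no test here. Slc22a26 had 22, 12 and 9 counts in untreated livers and 2, 11 and 3 in treated livers, which do not overlap in CPM. Among the tested members, 3 had under 10 counts in at least 1 library (Slc22a21, Abca9 and Abcb9), and only Slc22a21 of these was called. Exons on the opposite strand also overlap those of Abca3, Abca8b, Abcb9, Abcb10, Abcc9, Abcc10, Slc22a3, Slco2a1 and Slco2b1, and exons on the same strand overlap those of Abcb6, so their counts may hold reads of another gene.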

How the data were processed

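Total RNA of 6 livers (250 ng each) was made into libraries with an MGIEasy kit and sequenced on a BGISEQ-500 instrument. Per the submitters' processing notes, FastQC 0.11.5, HISAT2 2.2.1, StringTie 1.3.3 and the build mm10 were used, and SAMtools is named in the methods. The annotation and the strand setting are not given in the sources used here, so reads of a gene and of an overlapping gene on the other strand cannot be told apart. The authors deposited whole-number counts per gene name and library, which were used as deposited, and FPKM values per gene, normalised by the authors for transcript length and mapped reads. The counts appear to be StringTie's read estimates made whole. A column of the authors' totals over the libraries was not used.

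Counts were tested with the quasi-likelihood test of edgeR 4.0.16 (R 4.3.3) after filterByExpr and TMM scaling, with I/R+Rk2 against I/R and no covariate. Genes with a Benjamini-Hochberg adjusted p below 0.05 over 12411 genes were called. The scripts were tested on simulated data with 200 changed genes. Alternatives were other scalings and count filters, DESeq2 1.42.0, limma 3.58.1 on log2(FPKM + 1) or log2(FPKM + 0.1), a length trend, a block on the replicate number, and each liver left out. Replicates differed by more than sampling noise, so none was counted as a repeat of another. Sums over a class were compared with an exact permutation test. Gene positions are from GENCODE M21 (mm10) and upstream sequences from RefSeq.

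Named genes were a panel of 22 liver transporters, every called member that changed more than 2-fold, and the 3 smallest p-values of each role, 42 in all. Some members enter the fit and the counts but are not reported here by name or drawn. The members, roles and lists were chosen with earlier results of these data known.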

Additional observations from a re-analysis of the deposited data

How the results depend on the processing

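Of 705 log2 values of the 42 named members under 17 alternatives, 609 kept their direction and their side of the threshold, 66 lost their call, 10 gained one and 20 changed sign, and 19 members kept both in every alternative. Abcg2, called higher in the counts, changed sign in the fits on FPKM (log2 -0.189 with a pseudocount of 1, -0.195 with 0.1, and -0.189 without a filter). The other changes of sign were in 5 members without a call. In the same 3 FPKM fits Slco1a4 came to -0.163, -0.197 and -0.163, Slco2a1 to -0.0807, -0.0869 and -0.0807, and Slc22a7 to -0.0448, -0.0477 and -0.0448. With library size alone Slco2a1 was at -0.0747 and Slc22a7 at -0.0264, and with the length trend removed Abcc9 was at 0.0879 and Slc22a23 at 0.174. With 1 liver left out Slco1a4 lay between -0.0377 (without I/R+Rk2 liver 2) and 0.495, Slco2a1 between -0.0500 (without I/R+Rk2 liver 1) and 0.155, Slc22a7 between -0.0353 (without I/R+Rk2 liver 1) and 0.279, and Slc22a23 between -0.156 and 0.0196 (without I/R liver 2). The cause was not tested. The uptake count fell from 9 to 5 in limma on FPKM (pseudocount 0.1, genes of mean FPKM 1 or more). The efflux count fell from 8 to 3 in both filtered FPKM fits, where 7 of the 12 were tested, and the count over all members fell from 35 to 20 (pseudocount 1) and 19 (0.1) of 47 tested. The filtered FPKM fit with a pseudocount of 1 called 13 members higher and 7 lower, that without a filter 12 and 12, and library size alone 14 and 11, against 25 and 10. These alternatives also called more genes lower than higher in the whole table (69.5%, 72.8% and 72.5% of calls, against 53.9%). Slc17a8 (adjusted p = 0.081) lost its call in the unfiltered FPKM fit.

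Leaving out 1 liver gave 7 to 9 uptake carriers, 6 to 9 efflux transporters and 24 to 34 members in all. With the replicate block, 8 uptake carriers, 7 efflux transporters and 31 members were called. Livers with the same number did not deviate together (correlations of -0.0313, 0.0477 and -0.0243). The labels give no pairing, and whether livers of the same number shared a surgery day or batch was not tested. Abca2 (adjusted p = 0.059), Abca3 (0.0605) and Slc22a21 (0.0752) lost their calls in the block, as did Abcc10 (0.0578).

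The design has 3 livers a group from 1 experiment, and members of 1 family can share reads. Depth limits the 16 untested members and those of a few counts, such as Slc22a21.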

Other observations

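Dividing each gene's counts by its FPKM and the library total gives the transcript length that the FPKM implies. Over 11233 genes its log2 ratio between I/R+Rk2 and I/R had a median of 0.00 and lay between -0.23 and 0.28 for the middle 90% of genes, and 52 of the 56 members with a value were within those bounds. Abcg2, whose direction differed between counts and FPKM, was outside them. Its implied length was 1.78, 2.17 and 2.34 kb in the I/R livers and 2.73, 3.21 and 2.55 kb in the I/R+Rk2 livers, without overlap, a log2 ratio of 0.43. For Slco3a1 it was 3.70, 4.01 and 4.01 kb and 2.95, 2.99 and 3.37 kb, also without overlap, a log2 ratio of -0.33. Abcc2 was within the bounds but apart between the groups, at 5.15, 5.25 and 5.12 kb and 4.57, 4.59 and 4.55 kb. The transcripts behind these values were not analysed here, and these genes were chosen after their values were seen.

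Among the 25 members that rose, I/R+Rk2 liver 2 was the highest treated liver in 13 and I/R+Rk2 liver 1 the lowest in 17, and I/R liver 1 was the lowest untreated liver in 16. Among all 2516 genes that rose, the same livers held these places in 48.1%, 46.5% and 55.2% of genes.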
